A study of Bos taurus with 18 samples.

Results

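Gene expression after 6 h of recovery from heat was compared with expression at the end of the heat period in the MAC-T line, bovine mammary epithelium made to grow without limit in culture. The comparison used 6 of the 18 libraries of the series, 3 in each of 2 groups matched by replicate number. In the HSD group, cells were collected after 1 h at 42 °C. In the D6R group, cells had the same heat and were then kept at 37 °C for 6 h. Both groups had spent 4 days in a lactogenic medium with ovine prolactin (5 µg/ml) and dexamethasone (10 µg/ml), and the basal medium already held insulin (5 µg/ml) and hydrocortisone (1 µg/ml). Every group named here, the unheated one included, therefore carried both glucocorticoids. Unheated cells in the same medium (NHSD) and cells after 2 h of recovery (D2R), 3 libraries each, serve as reference levels. NHSD was grown on plate I, HSD on plate II and D2R and D6R on plate III, and no unheated cells were collected at the time of D6R. Recovery, plate and time of harvest therefore cannot be told apart. Each library pooled the RNA of 2 technical replicates, and all cells came from 1 line.

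Heat unfolds proteins, and the freed heat shock factor HSF1 then switches on genes for chaperones. HSP70 proteins bind unfolded chains with the help of J-domain partners and nucleotide exchange factors, HSP90 finishes the folding of kinases and receptors, and small heat shock proteins hold aggregates soluble. When unfolded protein is cleared, the chaperones bind HSF1 again and the induced messages decay. Proteins that pass through the endoplasmic reticulum, among them the secreted milk proteins, depend on a separate set of chaperones under the unfolded protein response.

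The libraries held 47584180 to 51397240 counts in HSD and 41020486 to 51270918 in D6R. The labelled cell type was visible in the epithelial markers, whose summed level over 11 genes was 17843 to 22573 CPM in HSD and 14555 to 19202 CPM in D6R (CPM, counts scaled to a common library total with edgeR's TMM factors). Markers of fibroblasts summed to 449 to 821 CPM in HSD and 452 to 746 CPM in D6R, those of myoepithelial cells to 106 to 249 and 95.1 to 180.3 CPM, and those of endothelial, immune and fat cells to at most 4.04 CPM in any of these libraries. KDR, PTPRC, ADIPOQ and LEP were at 0 in both groups, which was 1 of 4 endothelial, 1 of 5 immune and 2 of 3 fat cell markers. The other markers of these lists had counts, and 3 of 4, 4 of 5 and 2 of 3 stayed under 1 CPM in each group. No marker was called. CSN1S1, CSN2, CSN3 and LALBA, the genes of the main caseins and of alpha-lactalbumin, had 0 counts in all 6 libraries, a limit of 0.0103 CPM over their joint depth by counting error alone, and the milk protein gene PAEP had 4. Transcripts of the mitochondrial genome summed to 18137 to 36939 CPM in HSD and 17515 to 21529 CPM in D6R. All 13 estimates were below 0 (median -0.58), 0 were called, and their part in the results was not tested.

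One pair of libraries stood apart. In replicates 2 and 3, 27 and 26 of 31 cytosolic chaperone genes were lower at 6 h than at 2 h of recovery, whereas in replicate 1 only 9 were. Across 15158 genes, the log2 ratio of D6R to D2R correlated at 0.33 between replicates 2 and 3, and at 0.00 and -0.03 between replicate 1 and each of them. The log2 ratio of D6R to HSD correlated at 0.36 between replicates 2 and 3, and at 0.11 and 0.14 with replicate 1. That ratio also holds HSD replicate 1, so it does not single out the recovery libraries. Genes share their libraries here, so these correlations are descriptions. The replicate 1 libraries of D2R and D6R thus went against the order that their labels give in the other replicates, and the cause was not tested. For D6R against HSD, calls of named genes that change without them are given both ways below. The chaperone genes themselves helped to single out these libraries. Chaperone results without them are therefore descriptions, and their smaller p-values are not support.

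Over all genes, 496 of 15158 differed between D6R and HSD at an adjusted p under 0.05 (edgeR quasi-likelihood test with the replicate number as a block, Benjamini-Hochberg). Of these, 269 rose and 227 fell, which is 1.77% and 1.5% of the genes tested, and these shares are the background for every list below. The shares changed with expression level. In the highest of 4 equal groups by mean CPM, above 53.5 CPM, 1.27% rose and 3.75% fell, with a median of -0.10. Lists of highly expressed genes therefore have a lower background median and a higher background share of falls than all genes. List medians and counts were not adjusted for level. Most changes were small. The median size was 0.67 on the log2 scale among genes that rose and 0.46 among those that fell, and 43 rose and 26 fell by at least 1. The libraries of the 2 groups did not overlap for 180 of the 269 and 148 of the 227, where 7.36% and 6.62% of all genes had D6R wholly above or wholly below HSD. Without the replicate block, 10 genes were called (3 higher, 7 lower), all among the 496. These were HSPA6, DNAJB1, HSPA1A, DNAJB4, CCDC117, DEDD2 and USPL1, which fell, and HSP90B1, TCIM and DUSP1, which rose. Every other call named below was lost without the block. Leaving out the replicate 1 libraries of D2R and D6R gave 660 calls, 325 of them among the 496. Leaving out HSD replicate 1 or D6R replicate 1 gave 793 and 643 calls, against 72, 53, 116 and 48 without HSD replicate 2, HSD replicate 3, D6R replicate 2 and D6R replicate 3. Scaling by library size alone moved the median of all genes by 0.13 on the log2 scale and gave 626 higher and 85 lower genes, so the split between directions rests on the scaling.

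**Figure D1:**
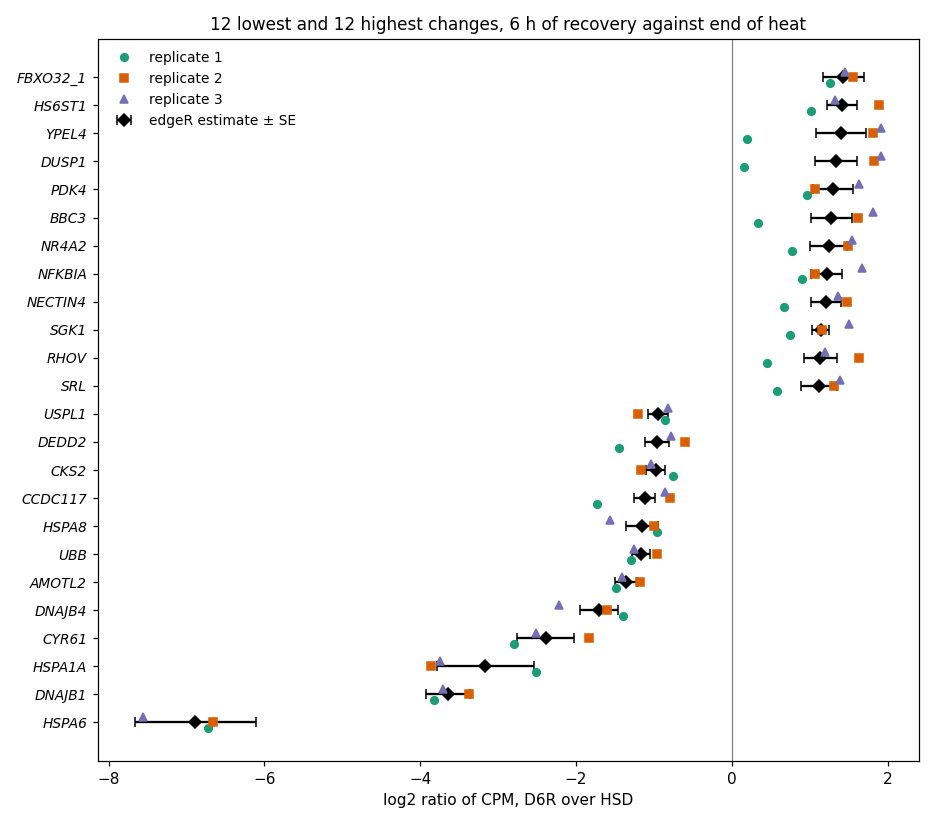
Log2 ratio of CPM, D6R over HSD, for the 12 genes with the lowest and the 12 with the highest change under the naming rule; coloured points are the 3 replicate numbers and black diamonds the edgeR estimates with their SE. HSPA6 lies at -6.88 and FBXO32_1 at 1.43, and replicate 1 is nearest to 0 for each of the 12 highest genes.

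The heat-inducible HSP70 genes HSPA6 and HSPA1A and the J-domain genes DNAJB1 and DNAJB4 fell. Among called genes with a symbol and at least 5 CPM, the 3 lowest estimates were those of HSPA6, DNAJB1 and HSPA1A. HSPA6, a strictly inducible HSP70, stood at 3991, 2666 and 1919 CPM in HSD replicates 1 to 3 and at 37.7, 26.4 and 10.2 CPM in D6R. It fell by 6.88 on the log2 scale (SE 0.78, edgeR adjusted p of 0.00276). All D6R libraries were still above the unheated cells, which held 3.43 ± 0.353 CPM (SD, n = 3). HSPA1A, the main inducible HSP70, went from 9818, 6802 and 5222 CPM to 1721, 468 and 389 CPM, with D6R replicate 1 well above the other two. It fell by 3.17 on the log2 scale (SE 0.62, edgeR adjusted p of 0.0283), and by 3.95 without the replicate 1 recovery libraries. The edgeR adjusted p of 1.3e-07 from that fit is not support, since the chaperones singled out the libraries left out. The HSPA1A call was lost without HSD replicate 2 or 3 or D6R replicate 2 or 3 (edgeR adjusted p up to 0.164). HSP70 genes resemble each other in sequence, and how the counting split shared reads is not given in the sources used here, so their exact levels are uncertain. HSPA8, the constitutive HSP70, was at 6909, 5550.4 and 5141 CPM and then at 3554, 2784 and 1733 CPM, without overlap. It fell by 1.15 on the log2 scale (SE 0.21, edgeR adjusted p of 0.00958), a call lost without HSD or D6R replicate 3 (up to 0.0666).

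DNAJB1, the J-domain protein that drives inducible HSP70, went from 1969, 1294 and 1318 CPM to 139.5, 125 and 100.4 CPM. It fell by 3.64 on the log2 scale (SE 0.28, edgeR adjusted p of 2.9e-05), and NHSD lay at 101 ± 8.4 CPM (SD, n = 3). The related DNAJB4 went from 497, 338 and 346 CPM to 188, 111 and 74.4 CPM and fell by 1.70 on the log2 scale (SE 0.24, edgeR adjusted p of 0.00436). For both genes the 3 D6R libraries lay below every HSD library. HSPBP1, an exchange factor that inhibits HSP70, fell by 0.33 on the log2 scale (SE 0.09, edgeR adjusted p of 0.0464). These made 6 lower and 0 higher of the 31 cytosolic chaperones and cochaperones tested, with a list median of -0.19 against 0.01 over all genes. The other J-domain genes of the list, DNAJA1, DNAJA4, DNAJB2, DNAJB5 and DNAJB6, were not called. The count was 3 to 6 when any one compared library was left out (3 without HSD or D6R replicate 3). It was 9 without the replicate 1 recovery libraries, which the order of these same genes had singled out.

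The nucleotide exchange factors HSPH1 (HSP110) and BAG3 did not pass the test over all 18 libraries. HSPH1 was at 814, 603 and 601 CPM in HSD and 693, 201 and 232 CPM in D6R, where replicate 1 lay inside the range of HSD. Its log2 fold change of -0.86 (SE 0.55, edgeR adjusted p of 0.381) did not pass, and it was -1.64 without the replicate 1 recovery libraries. The edgeR adjusted p of 5.6e-05 from that fit is not support, since the chaperones singled out the libraries left out. BAG3 was at 366, 225 and 184 CPM and then 118, 70.4 and 61.4 CPM, with no overlap. It had a log2 fold change of -1.63 (SE 0.61, edgeR adjusted p of 0.151), and the 3 replicates had log2 ratios of -1.63, -1.68 and -1.58. BAG3 passed when HSD and D6R were fitted alone with the block (edgeR adjusted p of 1.6e-05) and without the replicate 1 recovery libraries (0.037), but not without D6R replicate 1 alone (0.115).

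HSP90AA1, HSPB1 and CRYAB did not pass the test between D6R and HSD, and HSP90AA1 and HSPB1 were called above unheated cells at 6 h. HSP90AA1, the inducible cytosolic HSP90, was at 2905, 2683 and 2321 CPM in HSD and 2924, 2855 and 3101 CPM in D6R (log2 fold change 0.17, SE 0.12, edgeR adjusted p of 0.395), against 1325 ± 123 CPM in NHSD (SD, n = 3). D6R was 1.17 above NHSD on the log2 scale (SE 0.12, edgeR adjusted p of 3.6e-05). HSPB1 (HSP27) was at 2077, 1682 and 1577 CPM and 1338, 1810.1 and 1978 CPM (log2 fold change -0.07, SE 0.15, edgeR adjusted p of 0.81), and D6R was 0.87 above NHSD (SE 0.15, edgeR adjusted p of 0.00769). The sign of the HSPB1 estimate turned with library-size scaling and without HSD or D6R replicate 1. CRYAB, the small heat shock protein alpha-B-crystallin, was at 91.3, 83.2 and 127 CPM and 72.8, 129 and 214 CPM (log2 fold change 0.35, SE 0.20, edgeR adjusted p of 0.323). HSF1 itself was at 41.7, 34.5 and 34.7 CPM and 30.2, 43 and 42.1 CPM (log2 fold change 0.04, SE 0.12, edgeR adjusted p of 0.891), and 0 of 4 heat shock factor genes passed. A missed threshold does not show that these levels were equal.

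**Figure D2:**
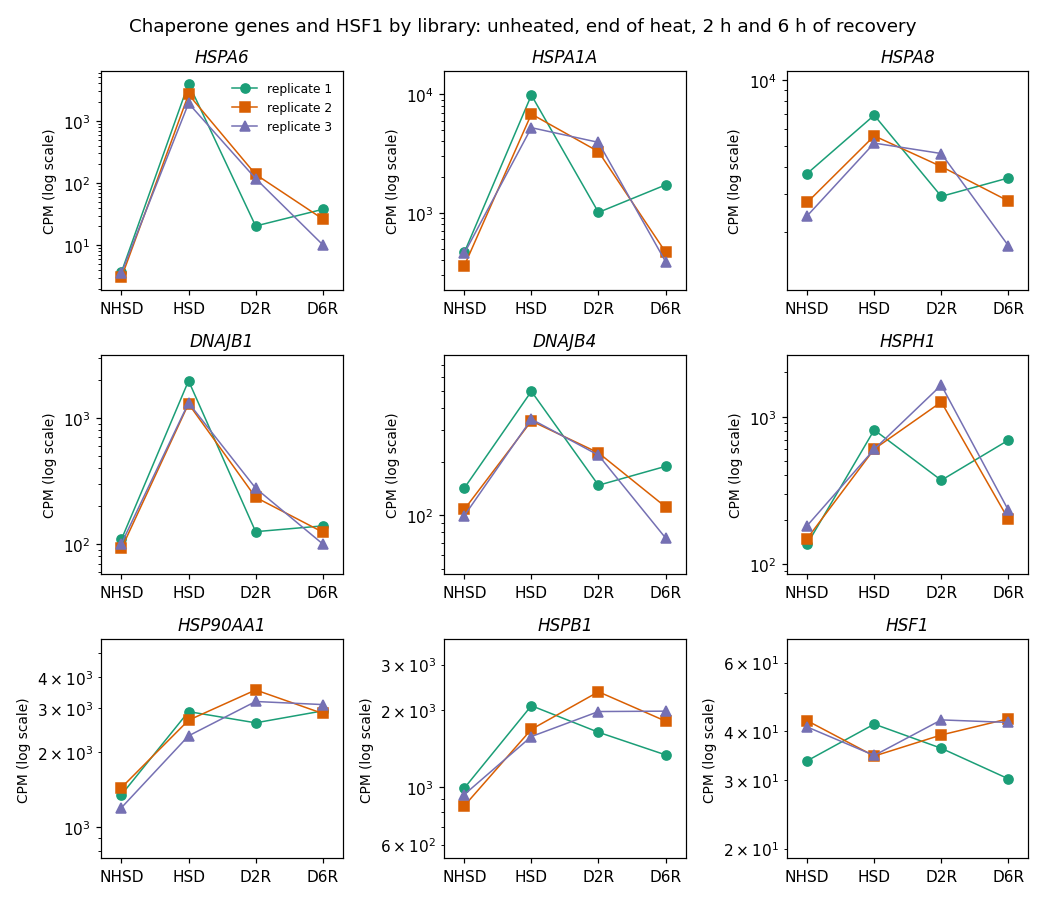
CPM on a log axis in each library of NHSD, HSD, D2R and D6R for 8 chaperone genes and HSF1; lines join libraries of 1 replicate number. HSPA6, HSPA1A and DNAJB1 drop between HSD and D6R in all 3 replicates, HSP90AA1 stays between 2321 and 3101 CPM in HSD and D6R, and replicate 1 has its D2R value below its D6R value for HSPA1A and HSPH1.

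The cytosolic chaperonin and the chaperones of mitochondria had no call. None of the 8 subunits of TRiC, the chaperonin that folds actin and tubulin, passed (edgeR, with or without the block), 1 did in DESeq2 and 2 did without HSD replicate 1. All 8 estimates were below 0, from -0.32 to -0.18, and their median of -0.27 lay 0.28 below that of all genes. CCT5 was at 569, 600.3 and 556 CPM in HSD and 516, 484 and 391 CPM in D6R (log2 fold change -0.32, SE 0.11, edgeR adjusted p of 0.0854). Of 11 mitochondrial chaperones and proteases, 0 passed in edgeR or DESeq2 (1 without HSD replicate 1), and HSPD1 and HSPE1, the mitochondrial HSP60 pair, had estimates of -0.06 and -0.09.

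In the endoplasmic reticulum 4 genes of protein folding rose. HSP90B1 (GRP94), its resident HSP90, was at 796, 899 and 756 CPM in HSD and at 1357, 1292 and 1389.6 CPM in D6R, every D6R library above every HSD library. It rose by 0.72 on the log2 scale (SE 0.09, edgeR adjusted p of 0.00034) and held its call when any compared library was left out. NHSD was at 663 ± 39.9 CPM (SD, n = 3). The disulfide isomerase PDIA4 was at 235, 258 and 228 CPM and then 304, 350.5 and 362 CPM, again without overlap, and rose by 0.49 on the log2 scale (SE 0.09, edgeR adjusted p of 0.00839). HYOU1 (GRP170), the exchange factor of the reticulum's HSP70, rose by 0.42 on the log2 scale (SE 0.10, edgeR adjusted p of 0.0294), and the oxidase gene ERO1B rose by 0.92 on the log2 scale (SE 0.22, edgeR adjusted p of 0.0323) from a low level, 1.78, 1.98 and 2.16 CPM in HSD and 3.71, 3.85 and 3.6 CPM in D6R. The PDIA4 call was lost without HSD replicate 2 or 3 or D6R replicate 3 (up to 0.0906), and that of HYOU1 without HSD replicate 2 or 3 or D6R replicate 1 or 3 (up to 0.185) and without the replicate 1 recovery libraries (0.0527). With HSD and D6R fitted alone, PDIA4 (0.0561) and HYOU1 (0.0851) did not pass, and 1 gene of the list below was called. HSPA5 (BiP), the HSP70 of the reticulum, was at 1601, 1362 and 1250.3 CPM and 2225, 1715 and 1653 CPM, without overlap. Its log2 fold change of 0.41 (SE 0.15, edgeR adjusted p of 0.132) did not pass, and it was 0.37 without the replicate 1 recovery libraries (0.0414). Of 31 genes of reticulum chaperones and the unfolded protein response, 4 rose and 0 fell, with a median of 0.12. The count was 1 to 4 with any one library left out, at its lowest without HSD replicate 2, HSD replicate 3 or D6R replicate 3.

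Genes of the integrated stress response, the pathway by which phosphorylated eIF2 raises ATF4, had few calls. Of 25 tested, 1 rose and 1 fell (median 0.04). The mTOR inhibitor DDIT4 was at 52.7, 40.4 and 92.8 CPM in HSD and 105, 92.4 and 194 CPM in D6R, and rose by 1.08 on the log2 scale (SE 0.22, edgeR adjusted p of 0.0223). Each replicate was higher after recovery, although the groups overlapped. PHGDH, the first enzyme of serine synthesis, fell by 0.39 on the log2 scale (SE 0.10, edgeR adjusted p of 0.039), and of the compared libraries only HSD replicate 1 could be left out without losing the call. It was also lost without the replicate 1 recovery libraries (0.0734) and with HSD and D6R fitted alone (0.0833). CHAC1, a glutathione-degrading ATF4 target, had the largest estimate of the list, at 6.96, 7.49 and 6.45 CPM and 7.34, 27.5 and 22.3 CPM (log2 fold change 1.51, SE 0.45, edgeR adjusted p of 0.0852). The pseudokinase gene TRIB3 (log2 fold change 0.58, SE 0.17, edgeR adjusted p of 0.0639) passed without the replicate 1 recovery libraries (0.00102), where the list had 6 calls. It had 0 without HSD replicate 2 or 3 or D6R replicate 2 or 3, and 3 and 6 without HSD and D6R replicate 1.

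UBB, which encodes chains of ubiquitin repeats, was at 1305, 914 and 857 CPM in HSD and 531, 470.2 and 360.0 CPM in D6R, without overlap. It fell by 1.17 on the log2 scale (SE 0.11, edgeR adjusted p of 1.4e-05), and NHSD was at 543 ± 114 CPM (SD, n = 3). Of 38 genes of the proteasome and ubiquitin list 2 fell, 0 rose and 36 did not pass, and the list median was -0.18. The UBB gene repeats its own sequence, so reads may be split or dropped there.

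CLK1 and CLK4 encode kinases that phosphorylate SR splicing factors. CLK4 was at 45.3, 33.6 and 36.5 CPM in HSD and 20.8, 19 and 27.7 CPM in D6R and fell by 0.77 on the log2 scale (SE 0.14, edgeR adjusted p of 0.0077). CLK1 was at 131, 112 and 136 CPM and 84.3, 72.2 and 98.8 CPM and fell by 0.57 on the log2 scale (SE 0.11, edgeR adjusted p of 0.013). For both kinases every D6R library lay below every HSD library. The splicing factors TRA2B (263, 268 and 224 CPM, then 219.8, 148 and 118 CPM) and SRSF3 fell by 0.67 and 0.50 (edgeR adjusted p of 0.019 and 0.0356). These were 4 lower and 0 higher of 16 SR factors and CLK kinases. The CLK2 and CLK3 estimates were 0.26 and 0.13, neither called. The count was 0 to 7 when one library was left out (0 without D6R replicate 2, 1 without HSD replicate 2 or 3, 2 without D6R replicate 3, 7 without D6R replicate 1) and 7 without the replicate 1 recovery libraries. The CLK4 call was lost without D6R replicate 2 (edgeR adjusted p of 0.0523) and that of CLK1 without HSD replicate 2 or 3 or D6R replicate 2 (up to 0.0918).

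Several less known genes also fell. CCDC117, a coiled-coil protein gene, was at 81.8, 66.2 and 70.4 CPM in HSD and 24.5, 38.2 and 39 CPM in D6R, and fell by 1.12 on the log2 scale (SE 0.14, edgeR adjusted p of 0.000187). USPL1, a SUMO protease of Cajal bodies, was at 32.9, 36.6 and 33.7 CPM and 18.2, 15.9 and 19 CPM, and fell by 0.95 on the log2 scale (SE 0.12, edgeR adjusted p of 0.000363). DEDD2, a nuclear protein with a death effector domain, was at 92.9, 60.3 and 66.7 CPM and 34.1, 39.8 and 38.8 CPM, and fell by 0.96 on the log2 scale (SE 0.15, edgeR adjusted p of 0.00314). The 3 genes had no overlap between groups and kept their calls with any compared library left out. NHSD held 26.5 ± 0.849 CPM, 14.6 ± 2.01 CPM and 31.8 ± 2.59 CPM of them (SD, n = 3). CKS2, a subunit of cyclin-dependent kinases, overlapped between groups, at 172, 153 and 98.7 CPM and 101, 68.3 and 48.1 CPM. It was lower after recovery in each replicate and fell by 0.98 on the log2 scale (SE 0.12, edgeR adjusted p of 0.000234).

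Targets of YAP and TEAD, the output of the Hippo pathway that reads cell shape and contact, were among the genes that fell. CYR61 (CCN1), a matricellular growth factor, was at 335, 271 and 142 CPM in HSD and 48.2, 76 and 25 CPM in D6R, without overlap. It fell by 2.39 on the log2 scale (SE 0.37, edgeR adjusted p of 0.0103), a call lost without D6R replicate 3 (0.085). AMOTL2, an angiomotin family protein that binds YAP, was at 92.6, 95.5 and 62.6 CPM and 33, 42.3 and 23.6 CPM and fell by 1.36 on the log2 scale (SE 0.15, edgeR adjusted p of 3.9e-05). NHSD lay at 91.4 ± 32.2 CPM for CYR61 and 47.2 ± 14.7 CPM for AMOTL2 (SD, n = 3). The related CTGF (CCN2) was at 8.34, 6.09 and 2.12 CPM and 2.05, 3.7 and 0.798 CPM (log2 fold change -1.35, SE 0.43, edgeR adjusted p of 0.0873), and ANKRD1, a further target, had an estimate of -0.17 (adjusted p of 0.828). On the TGF-beta side of the same list KLF10, an early TGF-beta response repressor, was at 23.9, 42.9 and 41.9 CPM and 59.3, 61.1 and 52.9 CPM and rose by 0.72 on the log2 scale (SE 0.13, edgeR adjusted p of 0.00717). Its NHSD level was 85 ± 14.6 CPM (SD, n = 3). KLF10 held its call with any one compared library left out and lost it with HSD and D6R fitted alone (edgeR adjusted p of 0.0732). Of 21 genes in the list, 2 fell and 1 rose (median -0.01).

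Early response genes, which growth factors and stress switch on within minutes, rose in part. DUSP1, a phosphatase that shuts off MAP kinases, was at 68, 41.8 and 44.8 CPM in HSD and 75.9, 148 and 169 CPM in D6R, without overlap. It rose by 1.34 on the log2 scale (SE 0.27, edgeR adjusted p of 0.0257), and the replicate 1 ratio was the smallest. The call was lost without HSD replicate 2 or 3 or D6R replicate 2 or 3 (up to 0.15) and with HSD and D6R fitted alone (0.157). The AP-1 genes JUNB (81.8, 83.1 and 87 CPM, then 128, 107 and 139 CPM) and FOSL2 (67.9, 70.4 and 106 CPM, then 85, 112 and 221 CPM) rose by 0.56 and 0.68 (edgeR adjusted p of 0.0193 and 0.00928). JUNB did not overlap between groups and FOSL2 did. NHSD held 86.1 ± 7.88 CPM of DUSP1, 141 ± 39.8 CPM of JUNB and 103 ± 39.8 CPM of FOSL2 (SD, n = 3). Against NHSD, JUNB stood at -0.71 on the log2 scale at the end of heat and -0.16 after 6 h (edgeR adjusted p of 0.00547 and 0.569). DUSP1 and FOSL2 were not called against NHSD at either time. The JUNB call held without HSD replicate 1 or 2 and was lost without each of the other compared libraries, and that of FOSL2 was lost without HSD replicate 2 or 3 or D6R replicate 3. With HSD and D6R fitted alone FOSL2 did not pass (0.0505) and 1 gene of the list was called. Of 22 early response genes 3 rose and 0 fell, while FOS (0.23), JUN (-0.50), EGR1 (-0.19) and MYC (-0.26) did not pass. The count was 0 to 4 with one library left out, 0 without HSD or D6R replicate 3 and 1 without HSD or D6R replicate 2.

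The list of growth arrest and p53 target genes had the highest median of all lists, 0.25, and 5 of its 16 genes rose while 0 fell. The name of the list does not mean that each member, TCIM among them, stops growth or answers to p53. TCIM, a small regulator of proliferation, was at 53.9, 67.4 and 50.8 CPM in HSD and 106, 138 and 111 CPM in D6R, and rose by 1.04 on the log2 scale (SE 0.10, edgeR adjusted p of 1.5e-05). PLK2, a polo-like kinase induced by stress, was at 516, 519 and 438 CPM and 974, 711 and 655 CPM, and rose by 0.66 on the log2 scale (SE 0.11, edgeR adjusted p of 0.0036). Neither gene overlapped between groups, and both kept their calls with any library left out. NHSD held 81 ± 5.77 CPM of TCIM and 834 ± 31 CPM of PLK2 (SD, n = 3). The antiproliferative genes BTG1 and BTG2 rose by 0.44 and 0.66 and SESN1, an mTORC1 inhibitor, by 0.83 (edgeR adjusted p of 0.0159, 0.0226 and 0.0356). The central p53 targets CDKN1A (0.17) and MDM2 (0.11) did not pass. The count was 2 without HSD replicate 2 or 3 or D6R replicate 2 or 3, and 4 and 5 without HSD and D6R replicate 1. With HSD and D6R fitted alone it was 3, and BTG1 did not pass (0.0567).

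Both called members of the hormone list were glucocorticoid-induced genes and rose, and dexamethasone was present throughout. SGK1, a kinase that controls ion channels and survival, was at 24.8, 32.5 and 36 CPM in HSD and 41.5, 72.5 and 102 CPM in D6R, without overlap. It rose by 1.14 on the log2 scale (SE 0.11, edgeR adjusted p of 1.4e-05) and kept its call with any library left out. NHSD was at 50.6 ± 13.6 CPM (SD, n = 3). PDK4, the kinase that shuts pyruvate dehydrogenase, was at 0.751, 1.54 and 6.54 CPM and 1.51, 3.27 and 20.4 CPM. It overlapped between groups, was higher after recovery in each replicate, and rose by 1.31 on the log2 scale (SE 0.26, edgeR adjusted p of 0.0116), a call lost without HSD replicate 2 or 3 or D6R replicate 3 (up to 0.166). FKBP5, a common readout of the glucocorticoid receptor, was at 225, 256 and 326 CPM and 285, 258 and 348 CPM (log2 fold change 0.15, SE 0.10, edgeR adjusted p of 0.357), and CISH, a readout of prolactin and STAT5, at 7.22, 8.84 and 12.8 CPM and 5.36, 8.09 and 8.53 CPM (log2 fold change -0.37, SE 0.14, edgeR adjusted p of 0.118). Of 19 genes of these pathways 2 rose and 0 fell (median 0.15), with 1 call left without HSD replicate 2, HSD replicate 3 or D6R replicate 3.

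NFKBIA and NFKBIZ, inhibitor and cofactor genes that NF-kB itself induces, rose from HSD to D6R. NHSD held 11.8 ± 1.48 CPM of NFKBIA and 10 ± 2.97 CPM of NFKBIZ (SD, n = 3). Against NHSD, NFKBIZ stood at -1.03 on the log2 scale at the end of heat and -0.06 after 6 h (edgeR adjusted p of 0.0166 and 0.916). NFKBIA stood at -0.59 and 0.63 (0.256 and 0.104). NFKBIA was at 7.33, 8.07 and 7.84 CPM in HSD and 13.7, 16.9 and 25.1 CPM in D6R, without overlap, and rose by 1.22 on the log2 scale (SE 0.20, edgeR adjusted p of 0.0036). NFKBIZ was at 3.16, 6.11 and 5.25 CPM and 5.88, 8.05 and 15.8 CPM and rose by 0.97 on the log2 scale (SE 0.20, edgeR adjusted p of 0.0162), a call lost without HSD or D6R replicate 3 (up to 0.166) and with HSD and D6R fitted alone (0.0756). The other 14 genes tested in this list of 20 did not pass, among them TNFAIP3 (-0.23), ICAM1 (-0.07) and CXCL8 (0.16), and 4 were too low to test. LIF, an inflammatory cytokine, was at 0.534, 0.829 and 1.17 CPM and 1.11, 1.81 and 2.67 CPM (log2 fold change 1.13, SE 0.34, edgeR adjusted p of 0.0682), and passed without D6R replicate 1 (0.0491) and without the replicate 1 recovery libraries (0.0447), where the list had 3 calls.

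GCLC, the limiting subunit of glutathione synthesis, was at 166, 205 and 178 CPM in HSD and 250.2, 339 and 278 CPM in D6R, without overlap. It rose by 0.65 on the log2 scale (SE 0.11, edgeR adjusted p of 0.00389) and was the 1 gene of 12 in the NRF2 list to pass. HMOX1 (0.02) and NQO1 (-0.22), classic NRF2 targets, did not. SRXN1, a sulfiredoxin, had a log2 fold change of 0.36 (SE 0.11, edgeR adjusted p of 0.0701) and passed without the replicate 1 recovery libraries (0.0078). In the list of clock genes NR1D1 (REV-ERB alpha) rose from 2.45, 3.22 and 2.7 CPM to 3.42, 6.77 and 8.29 CPM, by 1.08 on the log2 scale (SE 0.22, edgeR adjusted p of 0.0159), and 13 of 14 tested genes did not pass. The NR1D1 call was lost without HSD replicate 2 or 3 or D6R replicate 2 or 3 (up to 0.142) and with HSD and D6R fitted alone (0.0674). Without the replicate 1 recovery libraries the clock and NRF2 lists had 2 calls each. PER1 (0.09) and PER2 (-0.07) did not pass, and the time since the last medium change is not given in the sources used here.

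**Figure D3:**
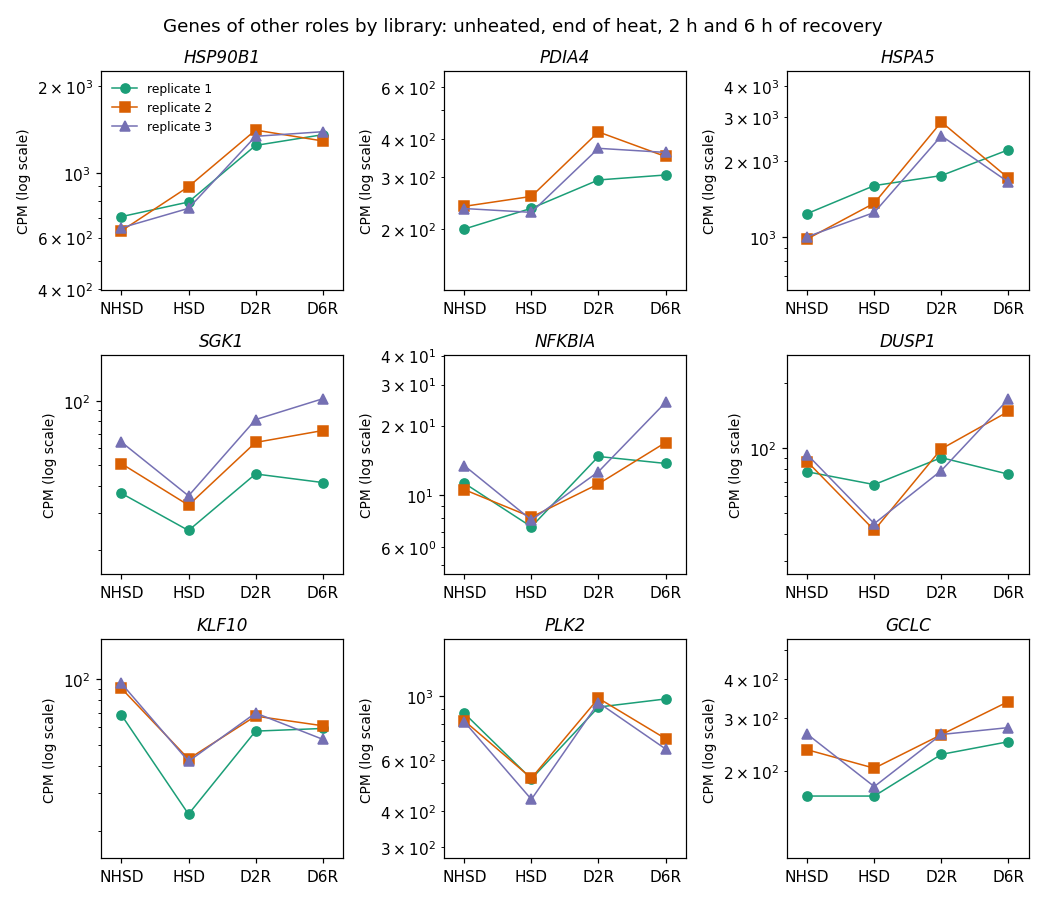
CPM on a log axis in each library of NHSD, HSD, D2R and D6R for 9 genes of other roles; lines join libraries of 1 replicate number. HSP90B1, PDIA4, SGK1, NFKBIA, DUSP1, KLF10, PLK2 and GCLC have all 3 D6R libraries above all 3 HSD libraries, and so does HSPA5, which did not pass the test.

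Estimates for cell cycle genes were mostly below 0 and small. Of 25 DNA replication genes, 6 fell and 0 rose, with a median of -0.29. MCM6, a subunit of the replicative helicase, was at 136, 148 and 103 CPM in HSD and 118, 104 and 63 CPM in D6R. It overlapped between groups, was lower in each replicate and fell by 0.47 on the log2 scale (SE 0.12, edgeR adjusted p of 0.0369). MCM2, MCM7, CDC45, GINS2 and RRM2 fell by 0.37, 0.36, 0.45, 0.42 and 0.53 (edgeR adjusted p from 0.0275 to 0.0464). The GINS2 call was lost without D6R replicate 1 as well, and without the replicate 1 recovery libraries (0.0856). Of 26 mitosis genes, 2 fell and 0 rose (median -0.25). UBE2C, the ubiquitin-conjugating enzyme of the anaphase-promoting complex, was at 195, 202 and 128 CPM and 156, 141 and 68.6 CPM and fell by 0.58 on the log2 scale (SE 0.13, edgeR adjusted p of 0.0246). The mitotic cyclin CCNB1 was at 219.5, 259 and 176 CPM and 213, 172 and 101 CPM and fell by 0.48 on the log2 scale (SE 0.12, edgeR adjusted p of 0.0374). MKI67 (0.63), CENPE (0.58) and CENPF (0.40) had estimates above 0, with no call. No gene of either list was called without HSD replicate 2 or 3 or D6R replicate 2 or 3, or with HSD and D6R fitted alone and the block kept, and 0 replication genes and 1 mitosis gene were called with scaling by library size. Without the replicate 1 recovery libraries the counts were 4 and 9. A bulk library cannot tell fewer cycling cells from less RNA per cell.

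**Figure D4:**
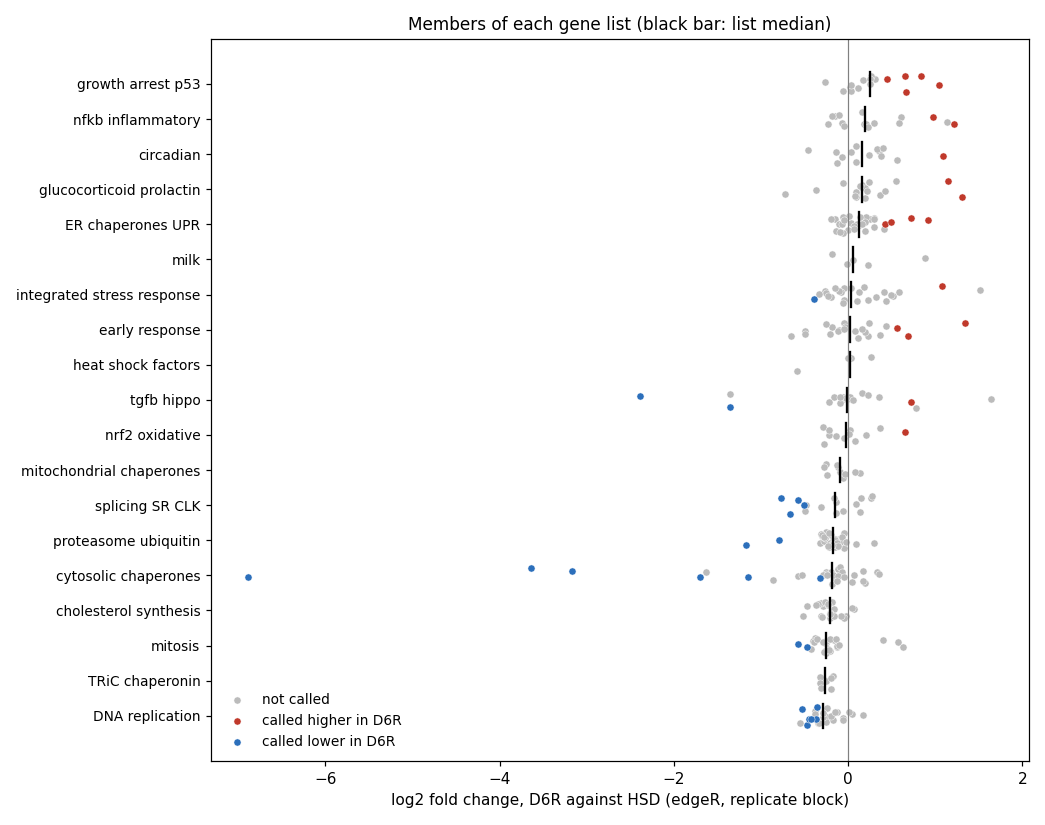
Log2 fold change of D6R against HSD for each tested gene of 19 lists, 1 row a list, ordered by list median (black bar); blue and red points are genes called lower and higher in D6R. Called lower genes lie mainly among cytosolic chaperones and DNA replication, and called higher genes among growth arrest, endoplasmic reticulum and early response genes.

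Cholesterol synthesis genes, 23 of 25 in the table, had no call in edgeR with or without the block, 2 in DESeq2 and 1 without HSD replicate 1. Estimates were below 0 for 21 of them (median -0.21). ACAT2, the thiolase at the start of the pathway, was at 166, 184 and 215 CPM in HSD and 138, 116 and 141 CPM in D6R, without overlap (log2 fold change -0.52, SE 0.18, edgeR adjusted p of 0.111). Of 13 milk and lipid genes 5 were expressed enough to test and 0 passed in edgeR or DESeq2. FABP3, a fatty acid carrier, was at 373, 334 and 623 CPM and 365, 293 and 498 CPM (log2 fold change -0.19, SE 0.13, edgeR adjusted p of 0.406).

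The remaining genes with the highest changes came from scattered functions and low levels. FBXO32_1, a second table entry under the name of the ubiquitin ligase gene FBXO32, was at 5.61, 5.89 and 10.4 CPM in HSD and 13.6, 17.4 and 28.5 CPM in D6R, and rose by 1.43 on the log2 scale (SE 0.26, edgeR adjusted p of 0.0103). The first entry, FBXO32, stayed between 1.5 and 2.37 CPM, and reads may be split between the entries. HS6ST1, a heparan sulfate sulfotransferase, was at 2.49, 2.39 and 4.76 CPM and 5.08, 8.99 and 11.9 CPM, and rose by 1.41 on the log2 scale (SE 0.19, edgeR adjusted p of 0.000607). BBC3 (PUMA), which triggers mitochondrial apoptosis, was at 3.38, 2.29 and 3.4 CPM and 4.27, 7.14 and 12 CPM, and rose by 1.28 on the log2 scale (SE 0.26, edgeR adjusted p of 0.0148). The orphan receptor gene NR4A2 was at 8.7, 8.74 and 9.15 CPM and 14.9, 24.7 and 26.8 CPM, and rose by 1.24 on the log2 scale (SE 0.24, edgeR adjusted p of 0.0159). These 4 genes did not overlap between groups. NECTIN4, an adhesion molecule, RHOV, YPEL4 and SRL rose by 1.21, 1.14, 1.40 and 1.12 with overlap (edgeR adjusted p from 0.00373 to 0.0275). HS6ST1 and NECTIN4 kept their calls with any library left out. The calls of FBXO32_1 and RHOV were lost without HSD replicate 2 or 3 or D6R replicate 3, and those of BBC3, NR4A2, YPEL4 and SRL without HSD replicate 2 or 3 or D6R replicate 2 or 3 (up to 0.17). With HSD and D6R fitted alone BBC3 (0.0636) and YPEL4 (0.0727) did not pass.

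The 2 h libraries place these changes in time. Between HSD and D2R, 59 genes were called (0.389% of those tested; 33 higher, 26 lower), with 8 calls without the block and 70 (51 higher, 19 lower) without D2R replicate 1. Among genes named above, those called as lower at 2 h were HSPA6, DNAJB1, UBB, AMOTL2, CCDC117, USPL1, DEDD2, CLK1 and CLK4. SGK1, TCIM, PLK2, JUNB, KLF10, HSP90B1, PDIA4, HYOU1 and HSPA5 were called as higher at 2 h. HSPA1A, HSPA8, DNAJB4, CYR61, CKS2, NFKBIA, DUSP1 and the cell cycle genes were not called at 2 h. All of these 2 h calls include D2R replicate 1, which stood apart, and were not worked out gene by gene without it. Between D2R and D6R 0 genes were called by edgeR with or without the block, with 1808 genes at an unadjusted p under 0.05 under the block. A call at 6 h and none at 2 h is thus not a tested difference between the times. Leaving out D2R replicate 1 gave 268 calls between D2R and D6R (167 higher, 101 lower at 6 h), and no other library was left out for that pair.

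Against unheated cells, the 2 groups stood as follows. HSD differed from NHSD in 84 genes (0.554%), of which 44 were higher (0.29%) and 40 lower (0.264%). D6R differed from NHSD in 220 (1.45%), of which 102 were higher (0.673%) and 118 lower (0.778%). Without the block the counts were 15 and 2. These comparisons share libraries with the main one and are given only as levels. HSPA6 was 9.66 above NHSD on the log2 scale at the end of heat and 2.77 above it after 6 h (edgeR adjusted p of 0.000609 and 0.0843). DNAJB1 stood at 3.91 and 0.27 (1.4e-05 and 0.672), and UBB at 0.91 and -0.26 (0.000175 and 0.263). HSP90B1 stood at 0.30 and 1.02 (0.214 and 1.2e-05), so its level moved away from that of unheated cells. TCIM stood at -0.51 and 0.53 (0.0233 and 0.0139) and SGK1 at -0.68 and 0.46 (0.00361 and 0.0374), below NHSD at the end of heat and above it after 6 h. KLF10 stood at -1.25 and -0.53 (1.9e-05 and 0.0425).

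**Figure D5:**
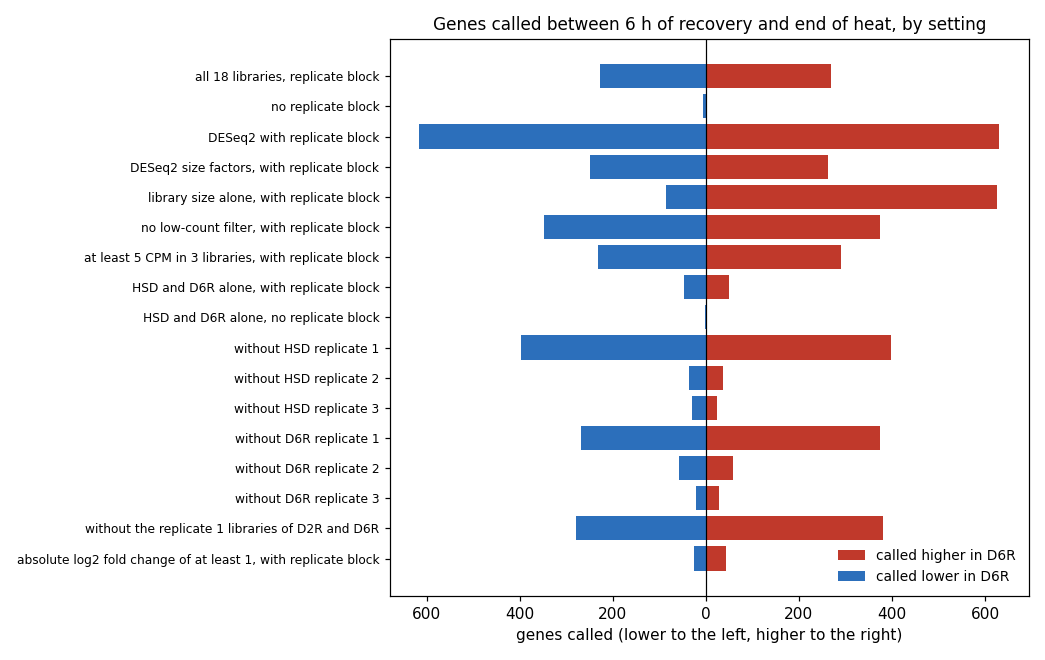
Number of genes called between D6R and HSD under each setting, higher in D6R to the right and lower to the left. The top bar is the reported test with 269 higher and 227 lower genes, and the counts run from 2 to 1247 over the settings.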

How the data were processed

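Poly-A RNA of 6 groups of 3 MAC-T libraries was sequenced. Per the labels' protocols, fastp 0.23.2 cleaned the read pairs and STAR 2.7.9a placed them on the cow genome ARS-UCD 1.3, and the submitters' processing notes name featureCounts 2.0.3, DESeq2 and limma. The deposited table holds raw read counts for 30642 genes, with annotation, strand and multi-mapping settings not given in the sources used here. Of counts from 1 to 9, 72.4% were even, so both mates of a pair may have been counted. A RefSeq table of a later build, ARS-UCD 2.0, held 81.3% of the gene names and was used only for older symbols and mitochondrial locus tags, and sequences were not used here.

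Genes with low counts were removed (filterByExpr, minimum count of 10), which left 15158. Counts were scaled by TMM and fitted over all 18 libraries with edgeR 4.0.16 (robust quasi-likelihood test, R 4.3.3) with a mean per group and the replicate number as a block. P-values were adjusted by Benjamini-Hochberg over all 15158 genes and called under 0.05. SEs come from the quasi-likelihood F statistic, and ratios within a replicate use log2 CPM with a prior count of 2. No single gene was tested alone, since an exact permutation test of 3 against 3 libraries cannot go below p = 0.1.

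The comparison pairs libraries by replicate number, and per the labels the numbers stand for full repeats of the experiment. Deviations from the group means correlated at 0.21, 0.33 and 0.48 in same-numbered HSD and D6R libraries and at 0.13 to 0.60 in all 45 same-numbered pairs. Pairs with different numbers had a median of -0.20 and reached 0.22, so the ranges overlapped. Deviations within a group sum to 0, so positive same-numbered pairs by themselves push the others below 0. No library was a duplicate of another, with a chi-square per gene of at least 65.5 in HSD and D6R. The block takes out differences that all groups of a run share. P-values thus measure the spread left after group means and block, over all 18 libraries, and not the spread between runs. The coefficient of variation was 0.14 with the block and 0.245 without it.

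Members and lists were chosen with earlier results of these data known. The 26 lists (426 genes, 423 present in the counts, 401 tested) are described by counts and medians. Named genes were the 12 highest and 12 lowest called genes with a symbol, at least 5 CPM and 1 direction in 3 replicates, the 3 members with the smallest p of 19 lists, and 12 fixed stress and hormone genes. Other list members are named as examples, and some list members are not reported here. In simulated counts for D6R against HSD (14967 genes), 94% of 2-fold and 99% of 4-fold changes were recovered, with 15 unchanged genes called. Without the block, 66% and 98% were recovered with 0 unchanged genes called. These counts were drawn from the fitted model with its replicate block. The rates therefore cannot show whether the block suits the real libraries. Alternatives were DESeq2 1.42.0, other scalings and filters, the compared groups alone, no block, a log2 threshold of 1, and leaving out libraries. Leaving out the replicate 1 libraries of D2R, or of D2R and D6R, was chosen after seeing the data.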

Additional observations from a re-analysis of the deposited data

How the results depend on the processing

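The 496 calls between D6R and HSD became 10 with no replicate block, 1247 with DESeq2, 96 with the compared groups alone, 2 with those groups alone and no block, and 69 with a log2 fold change of at least 1. Leaving out 1 compared library gave 48 to 793. Other scalings and filters stayed within 1.5 times, at 510 to 722. All 496 genes kept their direction in every fit that left out a library, with DESeq2, with the other scalings, without the filter and without the block. The fits that tested fewer genes gave that direction for 494 (groups alone) and 449 (at least 5 CPM). The 496 were chosen by their estimates in these same libraries. All 3 replicates shared 1 direction for 267 of the 269 that rose and 226 of the 227 that fell. The kept signs were thus nearly fixed in advance. The 43 calls among the list genes became 7 with no replicate block, 66 with DESeq2, 23 with the groups alone, 2 with those alone and no block, and 14 to 56 with 1 library left out. With no replicate block the calls fell from 59 to 8 for D2R against HSD, from 84 to 15 for HSD against NHSD and from 220 to 2 for D6R against NHSD. The 0 calls for D6R against D2R became 268 without D2R replicate 1. Of 47 named genes called, HSPA6 and DNAJB1 were called in every alternative, 18 in every fit that left out 1 library, 31 with the groups alone and the block, and 47 by DESeq2. Signs turned for 3 genes that were not called. HSPB1 stood at 0.047 with library size and at 0.10 without the replicate 1 recovery libraries, and ranged from -0.20 to 0.13 with 1 library left out. With 1 library left out, HSF1 ranged from -0.056 to 0.23 and HSF4 from -0.010 to 0.49. The causes were not tested. With at least 41020486 counts per library, depth limits only the lowest genes, such as the casein genes.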

Other observations

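Several called genes lay outside the lists and the naming rule, and those here were chosen after their values were seen. MT2A, a metal-binding metallothionein, was at 1069.8, 819 and 1360.5 CPM in HSD and 753, 369 and 724 CPM in D6R, and fell by 0.84 on the log2 scale (SE 0.16, edgeR adjusted p of 0.0111). HEXIM1, an inhibitor of the elongation factor P-TEFb, was at 106, 87.4 and 103 CPM in HSD and 74.5, 43.2 and 45.3 CPM in D6R, and fell by 0.87 on the log2 scale (SE 0.14, edgeR adjusted p of 0.00269). TNFSF9, the ligand of the receptor 4-1BB, was at 79.3, 78.2 and 83.3 CPM in HSD and 34.6, 46.6 and 50.4 CPM in D6R, and fell by 0.89 on the log2 scale (SE 0.10, edgeR adjusted p of 5.8e-05). EDN1, which encodes endothelin-1, was at 7.29, 6.33 and 3.02 CPM in HSD and 0.992, 1.61 and 0.668 CPM in D6R, and fell by 2.34 on the log2 scale (SE 0.34, edgeR adjusted p of 0.00134). PDE4B, a phosphodiesterase that breaks down cyclic AMP, was at 5.93, 9.21 and 8.02 CPM in HSD and 11.4, 19.3 and 18.5 CPM in D6R, and rose by 1.08 on the log2 scale (SE 0.16, edgeR adjusted p of 0.00162). Groups did not overlap for any of the 5 genes.

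Direction went with expression level. When the 15158 genes were split into 4 equal groups by mean CPM over all 18 libraries, the group from 1.64 to 18 CPM had 131 genes higher and 19 lower in D6R, and the top group, above 53.5 CPM, had 48 higher and 142 lower. The median log2 fold change went from 0.14 in the lowest group to -0.10 in the top one. With scaling by library size alone the top group had 134 higher and 49 lower genes and a median of 0.02, and the lowest group a median of 0.27. That scaling shifts all genes by a like amount, so it bears on the balance within a group and not on the step between groups. The cause was not tested.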
